A study of Bos taurus with 252 samples.

Results

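The proteasome is the protease complex that degrades ubiquitin-tagged proteins, and its 43 measured subunit, assembly and regulator genes are described here in the whole blood of feedlot steers over 56 days. The members were all genes of the count table whose symbol is PSMA to PSMG followed by a number, other than the immunoproteasome genes PSMB8, PSMB9 and PSMB10. Of 45 such symbols, 43 passed a filter of more than 0.2 CPM, the count of a gene scaled to the library's total, in at least 12 libraries, as did 19056 of the 33282 genes in the table. Each of the 43 was above that level in every library of the 42 steers, so no member entered through a single group. PSMA8 had a count in 24 libraries, with at most 6, PSMB11 had one in 74 libraries, with at most 8, and neither was tested.

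Blood was taken from 42 steers into tubes that lyse the cells and stabilize RNA, on day 0, then on days 3 and 7, on days 14 and 21, and last on day 56, with no steer missing from any day. The 7 groups of 6 steers were untreated controls (NC) and steers given an antimicrobial once under the skin, after the day 0 sample. The macrolides were tulathromycin (TULA) and tildipirosin (TILD), and the others were oxytetracycline (OXYT), a tetracycline, florfenicol (FLOR), an amphenicol, enrofloxacin (ENRO), a fluoroquinolone, and ceftiofur (CEFT), a cephalosporin. All steers, the NC included, had received tildipirosin, an implant, dewormers and vaccines at an earlier backgrounding site, so no group was free of earlier antimicrobial exposure. Each group was penned apart from the others and went through sampling at the same place in the order on every day after day 0, with NC first, so treatment, pen and order cannot be told apart.

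In background, the core particle of the proteasome is a stack of outer alpha rings and inner beta rings, and PSMB5, PSMB6 and PSMB7 carry its protease sites. The regulatory particle has a base, whose ATPases unfold the substrate, and a lid, whose subunit PSMD14 removes the ubiquitin chain. Dedicated chaperones assemble the core and the base, while PSME1 to PSME4 form other activators and PSMF1 can inhibit the core. In blood cells the complex also makes the peptides that class I molecules display, for which interferon induces PSMB8, PSMB9, PSMB10, PSME1 and PSME2. The 43 members comprised 7 alpha ring genes, 7 beta ring genes, 6 base ATPases, 3 other base subunits, 8 lid subunits, 3 base chaperones, 4 core chaperones, 4 activators and the inhibitor.

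Libraries held 26073640 to 74110289 counts, with a median of 43608836. Over all members and libraries a member had from 57 to 32814 counts, with a median of 3170 counts. Hemoglobin genes took 0.00405% to 25.5% of a library, with a median of 0.224% on day 0 and of 3.36% on day 21. In 17 libraries, 13 of them from days 14 and 21, the share was above 10% or the TMM scaling factor was below 0.8, and counts of members are given below with and without them. Levels are CPM scaled by the TMM method and are not corrected for gene length, so they are compared between samples and not between genes.

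Most of the proteasome genes changed over the 56 days, and they did not change as a block. By edgeR's quasi-likelihood F test with steer as a block, at a Benjamini-Hochberg FDR of 0.05 over all genes, 41 of 43 members (95.3%) differed among the 6 days, against 81% of all genes tested. The exceptions were the ubiquitin receptor PSMD4, with an FDR of 0.116, and the inhibitor PSMF1, with an FDR of 0.155. Over the 5 later days, 27 members were only ever called higher than on day 0, 14 only ever lower, PSMC2 once each way, and PSMF1 on no day. These patterns were not counted over all genes, so they have no background here, unlike the counts of single days below. In whole blood, fewer cells of a type and less RNA per cell cannot be told apart, and the counts below refer to RNA of all blood cells together.

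On day 3, 15 members (34.9%) were higher than on day 0, against 22.1% of all genes, and 7 (16.3%) were lower, against 19.2%. On day 7, 22 members (51.2%) were higher against 25.3% of all genes, and 3 (6.98%) were lower against 20.6%. Day 14 had 23 members higher (53.5% against 34.2%) and 9 lower (20.9% against 30.9%). Day 21 had 25 higher (58.1% against 34.1%) and 10 lower (23.3% against 32.5%). On day 56 the higher members fell to 19 (44.2% against 33.9%) and the lower members were 14 (32.6% against 31.8%), so that the share of lower members was close to that of all genes. The median log2 fold change of the members over the 5 later days was 0.08, 0.11, 0.19, 0.15 and 0.06 in that order, while that of all genes stayed between 0.02 and 0.03.

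**Figure D1:**
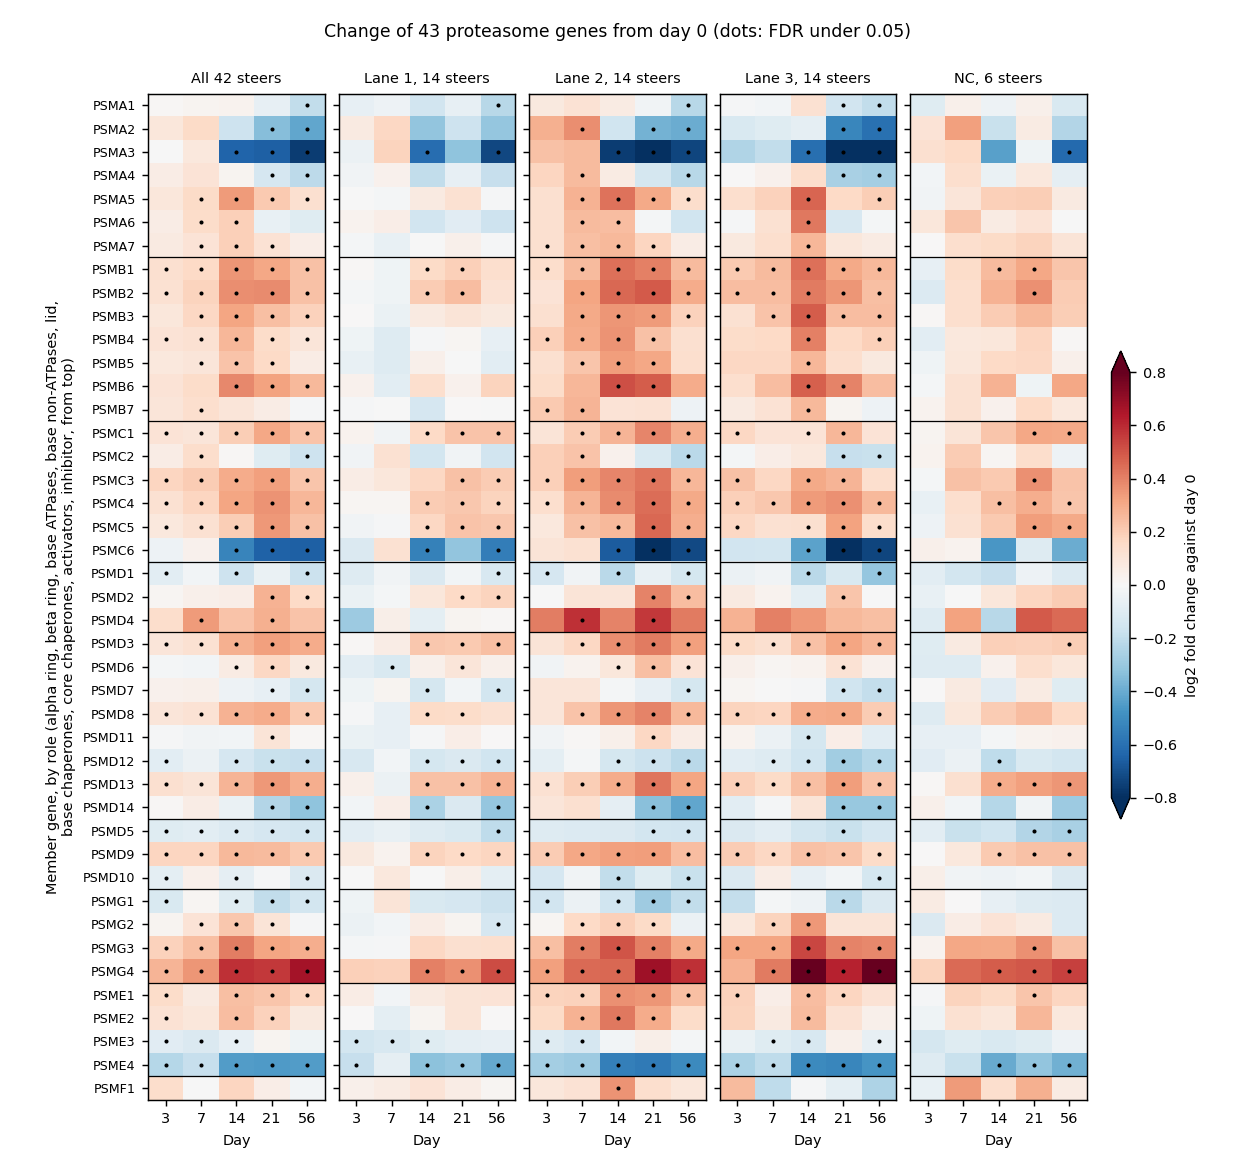
Log2 fold change of the 43 members (rows, by structural role) on days 3 to 56 against day 0 (columns), in all 42 steers, in the 14 steers of each sequencing lane and in the 6 NC steers. Red is higher and blue lower than on day 0, dots mark an FDR under 0.05, and colors saturate at 0.8. Within the same ring or particle some rows are red and others blue, and in all 42 steers 18 members were higher and 6 lower on each of days 14, 21 and 56. Calls on all of these days were not counted over all genes, so these numbers have no background.

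The alpha and beta rings took different courses. In the beta ring 6 of 7 genes were higher on each of days 7, 14 and 21 and 5 were on day 56, none was lower on any day, and its median log2 fold change was 0.32 on day 14 and 0.19 on day 56. In the alpha ring 3 of 7 genes were higher and 1 was lower on day 14, but 1 was higher and 4 were lower on day 56, with a median of -0.20. The genes lower on day 56 were PSMA1 to PSMA4, and the one higher was PSMA5. The difference between the rings was not tested.

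Among the protease genes, PSMB6, which carries the caspase-like site, ranged from 45.8 to 98.8 CPM on day 0 with a median of 71.7, and from 56.4 to 137 on day 14 with a median of 96.7. The ranges overlapped, but 35 of 42 steers were higher on day 14 than on day 0, and the log2 fold change was 0.39 (SE 0.07). PSMB5, with the chymotrypsin-like site, had a median of 29.1 CPM on day 0, 34.8 on day 14 and 30.5 on day 56, and its log2 fold changes were 0.23 (SE 0.04) on day 14 and 0.06 (SE 0.04) on day 56. Only the first of these was called. PSMB7, with the trypsin-like site, had medians of 55.5, 60.7 and 54.6 CPM on the same days, and it was called on day 7 alone, with a log2 fold change of 0.13 (SE 0.05).

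The base ATPases were divided as well. PSMC1, PSMC3, PSMC4 and PSMC5 were called higher on all 5 days, with log2 fold changes between 0.22 and 0.27 on day 56, whereas PSMC6 fell by 0.65 (SE 0.09). PSMC6 ranged from 13.9 to 40.5 CPM on day 0 with a median of 28.9, and from 8.25 to 35.7 on day 56 with a median of 17.5. It was lower on day 56 than on day 0 in all but 6 of 42 steers. PSMC2 was higher on day 7, by 0.14, and lower on day 56, where it fell by 0.16.

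PSMA3, an alpha ring subunit, showed the largest fall of any member. It ranged from 16.9 to 61.6 CPM on day 0 with a median of 41.3, from 8.28 to 55.2 on day 14 with a median of 22.2, and from 7.69 to 61.1 on day 56 with a median of 20.6. The highest steers of day 56 lay near the highest of day 0 while the lowest lay below all of day 0, and 5 of 42 steers had more than on day 0. Its log2 fold change was -0.76 (SE 0.11) on day 56 and -0.64 (SE 0.11) on day 14, but 0.09 on day 7, so that the fall came between days 7 and 14.

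In the lid, PSMD3, PSMD6, PSMD8 and PSMD13 were higher on each of days 14, 21 and 56, while PSMD12 was lower on those days. PSMD3, a scaffold subunit of the lid, rose from a median of 117 CPM on day 0 (99.0 to 148) to 147 on day 14 (120 to 207) and 144 on day 56 (117 to 184). It was higher than on day 0 in 42 of 42 steers on both day 14 and day 21, and its log2 fold change on day 56 was 0.30 (SE 0.02). PSMD13 had a median of 80.8 CPM on day 0 (63.03 to 108) and 101 on day 56 (70.5 to 122), a log2 fold change of 0.29 (SE 0.03), and was higher in 40 of 42 steers. PSMD14, the deubiquitinase, fell by 0.23 on day 21 and by 0.32 (SE 0.05) on day 56. PSMD7, with which PSMD14 forms a pair in the lid, fell by 0.07 on day 21 and by 0.14 (SE 0.03) on day 56, and PSMD11 was called on day 21 alone.

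The 3 other base subunits were each different. PSMD2 was higher on days 21 and 56, PSMD1 was lower on days 3, 14 and 56, and PSMD4 was called higher on days 7 and 21 with large standard errors of 0.12, although the joint test did not call it.

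The genes that build the complex moved apart as well. PSMG4, a core chaperone, had the largest rise of any member: its median was 53.6 CPM on day 0 (30.4 to 96.6), 79.9 on day 14 (32.8 to 148) and 85.7 on day 56 (53.02 to 142). In 41 of 42 steers it was higher on day 56 than on day 0, and the log2 fold change was 0.66 (SE 0.06), a 1.58-fold rise. PSMG3, its partner in a chaperone pair, was higher by 0.41 on day 14 and by 0.29 on day 56, and was called on all 5 days. PSMG2 was higher on days 7, 14 and 21, whereas PSMG1, the partner of PSMG2, was lower on days 3, 14, 21 and 56. Of the base chaperones, PSMD9 was higher on all 5 days, by 0.26 on day 14 in 41 of 42 steers, PSMD5 was lower on all 5 days, and PSMD10 was lower on days 3, 14 and 56.

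Among the activators, PSME4, which caps the core in the nucleus, had a median of 43.6 CPM on day 0 (33.95 to 54.3), 31.5 on day 14 (22.2 to 41.1) and 31.5 on day 56 (23.2 to 38.5). The upper end of the day 56 range lay below the day 0 median. It fell by 0.45 (SE 0.04) on days 14, 21 and 56, and only 1 of 42 steers was higher on day 56 than on day 0. PSME1, an interferon-inducible activator, rose from a median of 421 CPM (329 to 616) to 509 on day 14 (413 to 694) and 485 on day 56 (388 to 680), with log2 fold changes of 0.24 and 0.17 (SE 0.03). PSME2, with which PSME1 forms a ring, rose from 118 CPM (85.9 to 170) to 145 on day 14 (100.2 to 251), by 0.25 (SE 0.05), and had 124 CPM (97.8 to 202) on day 56, which was not called. PSME3, a nuclear activator, was lower on days 3, 7 and 14 and fell by 0.12 on the log2 scale on day 7, its largest change.

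**Figure D2:**
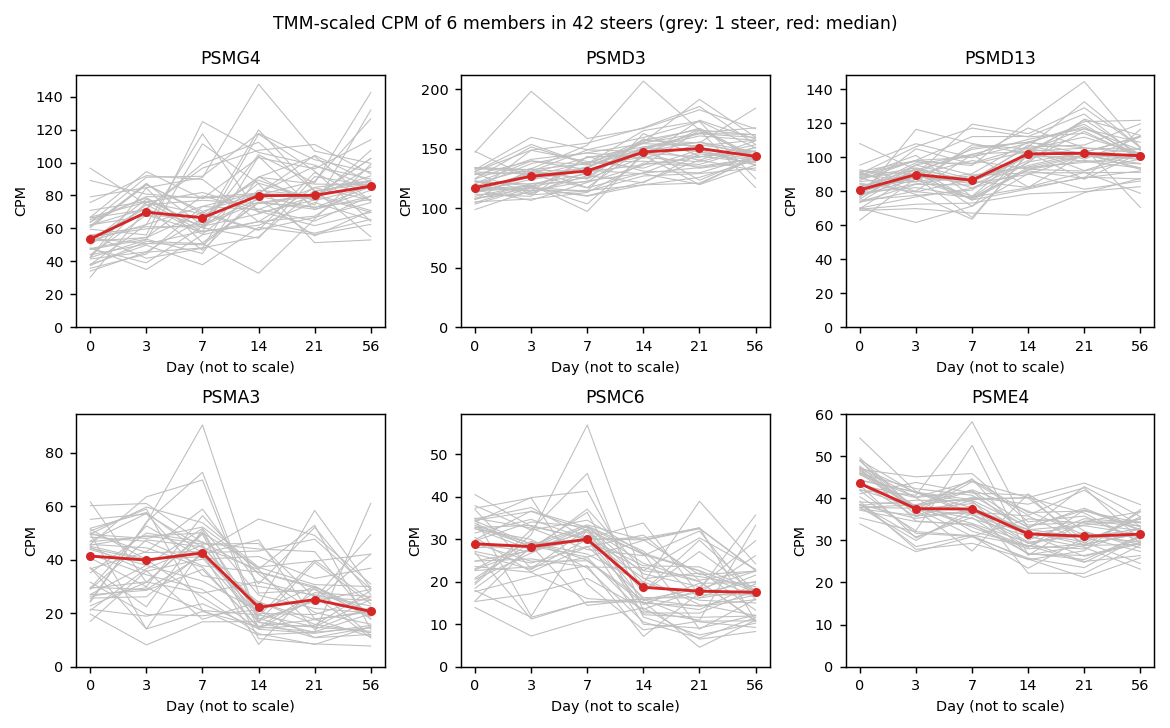
TMM-scaled CPM (vertical axis, from 0) of the 3 members with the largest called rise on day 56 (PSMG4, PSMD3, PSMD13, top) and the 3 with the largest called fall (PSMA3, PSMC6, PSME4, bottom) by sampling day, which is not drawn to scale. Grey lines are the 42 steers and the red line is their median, which for PSMA3 went from 41.3 on day 0 to 22.2 on day 14 and 20.6 on day 56.

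The day counts were also taken within each sequencing lane. Lane 1 carried NC, ENRO and 2 FLOR steers, lane 2 carried TULA, 4 FLOR and 4 TILD steers, and lane 3 carried CEFT, OXYT and 2 TILD steers, 14 steers in each. On days 3 and 7, no member was higher in lane 1, where 2.91% and 6.22% of all genes were. In lane 2, 11 and 26 members were higher on these days, beside 11.8% and 18.1% of all genes. In lane 3, 12 and 11 members were, beside 12.4% and 14.8% of all genes. On day 14, 10 members were higher and 7 lower in lane 1, 24 and 7 in lane 2 and 23 and 7 in lane 3, with median log2 fold changes of 0.02, 0.26 and 0.23. Of all genes, 20.4% were higher and 20.8% lower in lane 1 on day 14, 25.4% and 24.2% in lane 2 and 25.5% and 24.7% in lane 3, so that the share of higher members in lane 1 was near that of all genes. On day 56 there were 9 higher and 10 lower members in lane 1, 17 and 14 in lane 2 and 13 and 13 in lane 3. The shares of all genes higher and lower on that day were 22.3% and 23.6% in lane 1, 24.3% and 25.1% in lane 2 and 23.9% and 25.7% in lane 3, and in lane 1 both shares of the members were near them. In the 6 NC steers alone, 5 members were higher and 2 lower on day 14, where 13.5% and 14.3% of all genes were, and 7 and 3 on day 56, where 13.6% and 14% were. NC and ENRO shared lane 1, FLOR and TILD were each split over a pair of lanes, and no library of CEFT, OXYT, TILD or TULA shared a lane with NC. The difference between lanes was not tested.

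The 3 members with the largest called rise on day 56 and the 3 with the largest called fall were followed in the same way. PSMG4, PSMD3, PSMD13, PSMA3, PSMC6 and PSME4 were called in the same direction on days 14 and 56 in each of the 3 lanes. Their log2 fold changes on day 56 were 0.52, 0.59 and 0.83 for PSMG4 in lanes 1, 2 and 3, and -0.41, -0.51 and -0.47 for PSME4. In the NC steers alone, 5 of the 6 were called on day 56, PSMG4 at 0.55, PSMD13 at 0.35, PSMD3 at 0.20, PSMA3 at -0.62 and PSME4 at -0.39, whereas PSMC6 was at -0.40 with an FDR of 0.140. On day 14 the NC steers alone gave no call for PSMA3, PSMC6 or PSMD3, with FDRs of 0.161, 0.0839 and 0.0547. PSMB5, PSME1 and PSME2 on day 14 were not called in lane 1, at 0.04, 0.07 and 0.02, but were called in lanes 2 and 3 at 0.24 to 0.42.

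Markers of blood cell types moved over the same days. T cell markers were higher, 9 of 9 on days 7, 14 and 56, and their summed level went from a median of 2040.4 CPM (1499 to 3330.3) on day 0 to 2968 (2099 to 4393) on day 56. Of the 6 neutrophil markers tested, all were lower on day 21 and 5 on each of the other days, and their sum went from 2557 CPM (1299 to 5126) on day 0 to 1356 (709 to 2872) on day 21 and 1712 (933 to 3959) on day 56. The 6 monocyte markers summed to 567 CPM (273 to 1306) on day 0 and 349 (184 to 657) on day 56, and 5 of them were lower. Of the 7 B cell markers, 5 were higher and 2 lower on day 56, with sums of 1710 CPM on day 0 and 2133 on day 56. Of the 6 NK and cytotoxic markers tested, 1 was higher and 4 lower on day 56, with sums of 516 and 402 CPM. Among the 6 platelet markers 1 was higher on day 56, with sums of 804 and 981 CPM. The 7 erythroid markers were all higher on days 14 and 21 and 2 were on day 56, with sums of 2349 CPM (52.4 to 39267) on day 0, 31899 (383 to 271312) on day 14 and 3396 (219 to 133308) on day 56. Of the 10 interferon-stimulated genes tested, 6 were lower on day 14 and 9 on day 56, with medians of 2025 CPM (955 to 22950.2) on day 0 and 1158 (684 to 6103) on day 56. OAS2 had a median of 0 CPM and was not tested. The part of these changes in the members' changes was not tested. Without the 17 libraries that stood apart, 23 members were higher and 9 lower on day 14, as with them, and 18 were higher and 15 lower on day 56.

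The immunoproteasome genes PSMB8, PSMB9 and PSMB10, which replace PSMB5, PSMB6 and PSMB7 in the induced form of the core, were higher as well. On day 14 all 3 were called, at log2 fold changes of 0.43 (SE 0.11), 0.37 (SE 0.05) and 0.40 (SE 0.11), and PSMB9 and PSMB10 were called on day 56, at 0.22 and 0.26. PSMB9 had a median of 174 CPM on day 0 (113 to 239), 222 on day 14 (154 to 337) and 199.6 on day 56 (147 to 298). The ratio of PSMB9 to PSMB6 changed by -0.00 ± 0.37 on day 14 (log2, mean ± SD, n = 42), and was higher in 15 of 42 steers. That of PSMB8 to PSMB5 changed by 0.22 ± 0.60 and that of PSMB10 to PSMB7 by 0.35 ± 0.62, higher in 25 and 30 of 42 steers.

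Of 30 partner genes of the ubiquitin and proteasome system, 28 were tested, and the joint test called all 28. On day 56, 11 were higher and 14 lower, with a median of -0.10. NFE2L2, a transcription factor of the oxidative stress response, went from a median of 88.3 CPM on day 0 (60.01 to 122) to 61.4 on day 56 (41.9 to 83.8), a log2 fold change of -0.51 (SE 0.03), and was lower in all 42 steers. UBQLN2, a shuttle that carries ubiquitinated proteins to the proteasome, was lower by 0.58 on the log2 scale on day 14 and by 0.42 (SE 0.04) on day 56. Of the partners that bind the complex itself, the ubiquitin receptor ADRM1 was higher by 0.22 on day 56, the lid subunit SEM1 fell by 0.41, the assembly factor POMP fell by 0.34 and the deubiquitinase USP14 fell by 0.33.

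Members were also compared with each other across libraries. After the daily mean of each group was removed, the median Spearman correlation over all libraries was 0.45 for the 103 pairs of members from the same structural group and 0.23 for the 800 pairs from different groups. These are descriptions, since 6 libraries come from each steer and all libraries share the scaling. Pairs within the alpha ring had a median of 0.68 and those within the beta ring 0.56, while pairs within the lid had 0.18 and pairs of base ATPases 0.24. The highest value of all 903 pairs, 0.92, joined PSMA3 of the alpha ring and PSMC6 of the base, and the lowest, -0.57, joined PSMC6 and the lid subunit PSMD3. PSMB2 and PSMD8 had 0.87, PSMA2 and PSMA4 0.87, and PSMC1 and PSMC5 0.84. PSMD5 had a median of -0.24 with the other members, the lowest of all.

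**Figure D3:**
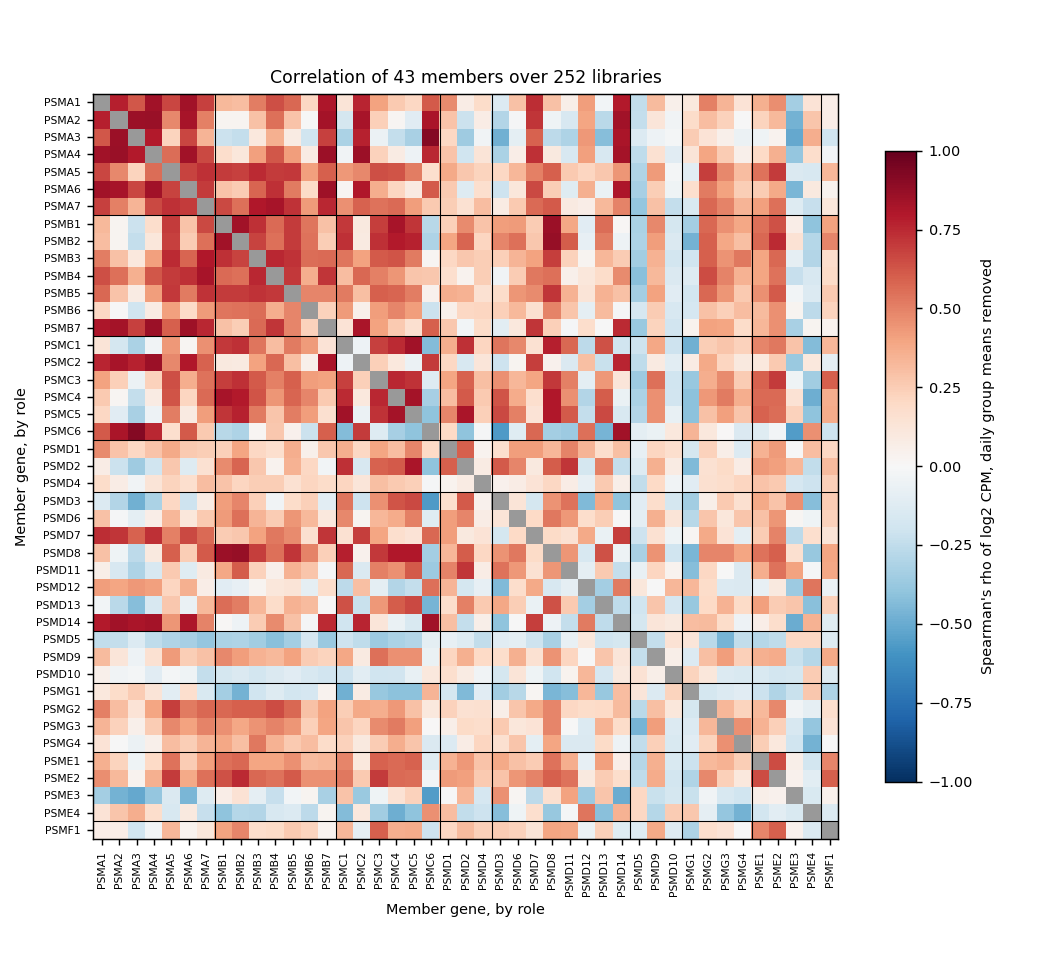
Spearman's rho between the log2 CPM of each pair of the 43 members over all libraries, after the daily mean of each group was removed, with rows and columns by structural role and grey on the diagonal. Red blocks join members of different roles, for example PSMA3 with PSMC6 (0.92), and PSMC6 with PSMD3 is the lowest pair (-0.57).

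The steer took a median of 31.9% of a member's variance and the day 17.5%, against 38.6% and 8.36% for all genes tested. The share of the day ranged from 3.30% for PSMF1 to 42.8% for PSME4 and was 38.8% for PSMD3. The standard deviation of log2 CPM over all libraries was 0.22 for the median member and 0.50 for the median gene, but 0.73 for PSMA3, 0.67 for PSMD4 and 0.61 for PSMC6.

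Treated steers were compared with NC on the same day by edgeR's quasi-likelihood test at an FDR of 0.1, to ask whether a drug changed the blood transcriptome. On day 0, before dosing, no member was called in any of the 6 treatments, in which 0.0945% of all genes were called at least in 1, and 0 to 3 members a treatment had an unadjusted p under 0.05. On days 3 to 56, members were called in 2 of 30 comparisons, both on day 3, namely CEFT and TILD, and 16.7% of all genes were called in at least 1. In the other 28 the unadjusted p was under 0.05 for 0 to 18 members, most in ENRO on day 7, where 15.5% of all genes had such a p. DESeq2 called members in 16 of the 30 comparisons, 39 different members in all. It also called more of all 19056 genes, 3551 in CEFT and 1798 in TILD on day 3, against 2070 and 599 by edgeR. The share of all genes that DESeq2 called in at least 1 comparison is not given here. The 6 treatments shared the same 6 NC steers.

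In CEFT on day 3, 13 members (30.2%) were higher than in NC, against 6.0% of all genes, and 1 (2.33%) was lower, against 4.86%. The higher members were the beta ring genes PSMB1, PSMB2 and PSMB6, the ATPases PSMC1, PSMC3, PSMC4 and PSMC5, the lid genes PSMD3, PSMD6, PSMD8 and PSMD11, the base chaperone PSMD9 and the inhibitor PSMF1. No alpha ring gene was among them, and the lower member was PSME4. The median log2 difference of the 43 members was 0.17, and -0.00 for all genes.

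PSMD3 had 107, 110.1, 112, 119, 111 and 115 CPM in the 6 NC steers and 139.8, 149, 198, 141, 159.7 and 127 CPM in the 6 CEFT steers. The groups did not overlap, and the log2 difference was 0.43 (SE 0.10, FDR 0.0560). PSMC4 had 78.3, 74.7, 74.8, 73.1, 73.8 and 74.8 CPM in NC and 90.3, 89.5, 118, 90, 103 and 85.6 CPM in CEFT, at 0.34 (SE 0.08, FDR 0.0580). The NC steers lay close together, and every CEFT steer was above them. PSMC5 had a median of 88.5 CPM in NC (79.2 to 96.3) and 111 in CEFT (97.2 to 143), at 0.38 (FDR 0.0618). PSMD8 had 93.9 CPM in NC (87.9 to 104) and 127 in CEFT (104 to 160), at 0.39 (FDR 0.0667), and the groups came close without overlap.

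PSMB2 had 84.4, 87.4, 72.3, 69.4, 85.0 and 65.1 CPM in NC and 112, 93.8, 168, 102, 117 and 88.2 CPM in CEFT, at 0.54 (SE 0.15, FDR 0.0677). The 168 CPM came from the same steer that was highest for PSMD3 and PSMC4. PSME4 had 43.8, 41.5, 41.3, 40.3, 37.7 and 42.3 CPM in NC and 37.3, 27.3, 27.9, 28.5, 32.1 and 37.9 CPM in CEFT, at -0.38 (SE 0.10, FDR 0.0667). The highest CEFT steer for PSME4 was just above the lowest NC steer. PSMB1 had a median of 122 CPM in NC (116 to 133) and 155 in CEFT (134 to 200), at 0.34 (SE 0.09, FDR 0.0702). In all, 9 members did not overlap between CEFT and NC, against 3.58% of all genes.

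In TILD on day 3, 3 members (6.98%) were higher than in NC, against 1.3% of all genes, and none was lower, against 1.84%, with 17 members at an unadjusted p under 0.05. PSMD3 had 149, 131, 132, 134, 139.8 and 127 CPM in TILD, all above the NC steers, at a log2 difference of 0.27 (SE 0.06, FDR 0.0578). PSMC5 had a median of 104 CPM (101 to 115), at 0.27 (SE 0.07, FDR 0.0854). PSMD4 had 72.4, 57, 69.9, 62.3, 44.5 and 58.2 CPM in TILD and 17.9, 43.8, 51.9, 22.2, 34.4 and 20.1 CPM in NC, at 0.94 (SE 0.25, FDR 0.0963). For PSMD4 the groups overlapped, the NC steers spread widely, and the difference on day 0, before dosing, was 0.67 (SE 0.19, FDR 0.440). In all, 8 members did not overlap between TILD and NC, against 2.5% of all genes.

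**Figure D4:**
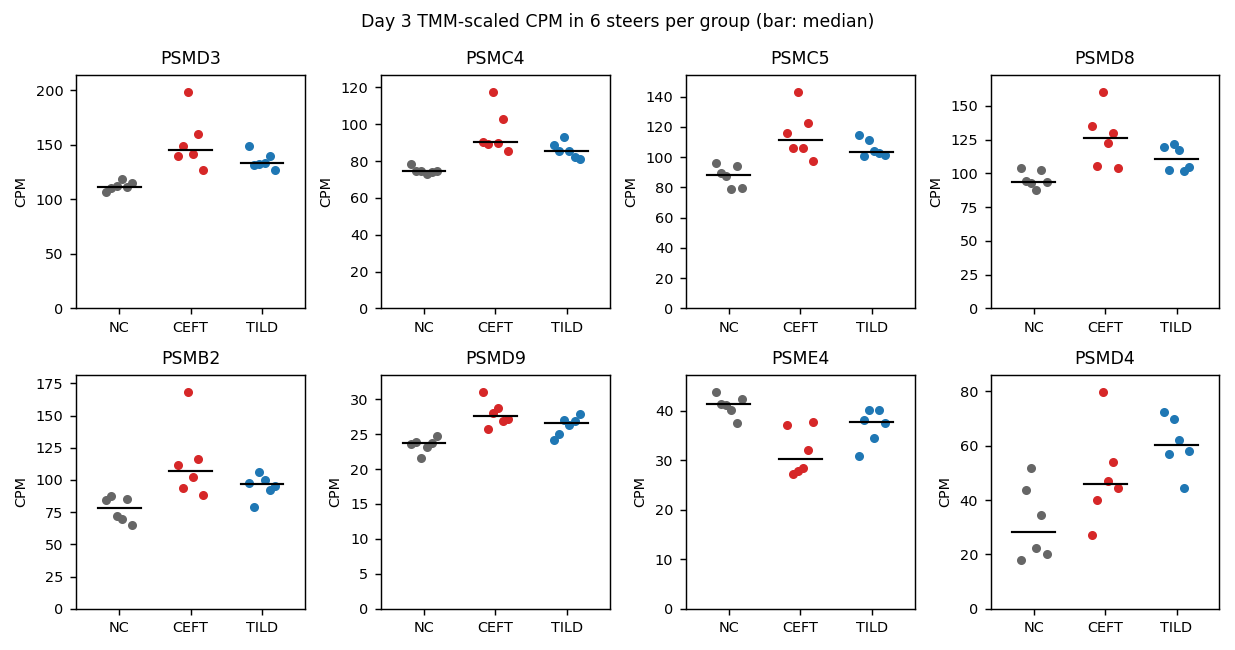
TMM-scaled CPM on day 3 (vertical axis, from 0) of 8 members in the 6 steers each of NC (grey), CEFT (red) and TILD (blue), with the group median as a bar. For PSMD3, PSMC4 and PSMC5 every CEFT and TILD steer lies above all NC steers, while for PSMD4 the NC steers range from 17.9 to 51.9.

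The treatment and the lane differ together here. NC was on lane 1, CEFT on lane 3 and TILD on lanes 2 and 3. The ComBat_seq adjustment for lane had no term for treatment, so it also removes differences between treatments that follow the lane. Calls lost after it therefore cannot tell treatment from lane. With the counts adjusted by ComBat_seq for lane, no member was called in CEFT or TILD by the quasi-likelihood test, with 15 and 6 members at an unadjusted p under 0.05, or by the likelihood ratio test, with 10 and 3. Of all genes, 0 were called in either treatment by the first test and 39 and 18 by the second, and the median log2 difference of the members was 0.09 in CEFT and 0.13 in TILD after the adjustment. When lane entered a model of all 42 libraries of day 3, no member and no other gene was called in CEFT or TILD either. In that model 12 and 3 members had an unadjusted p under 0.05. The median log2 difference of the members was 0.16 in CEFT and 0.07 in TILD. No lane held NC together with CEFT or TILD. The model linked them only through FLOR, on lanes 1 and 2, and TILD, on lanes 2 and 3. Calls lost in it therefore cannot tell treatment from lane either.

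The number called also turned on single steers. In CEFT, no member was called without NC7, NC12, NC13 or NC15, 1 without Ceft6, 3 without Ceft5, 6 without NC1, 7 without Ceft4, 8 without Ceft3, 9 without Ceft10, 12 without NC5 and 26 without Ceft8. The number of all genes called moved with it, from 132 without NC12 to 3835 without Ceft8. In TILD, none was called without NC7, NC12, Tild5 or Tild10, 1 without NC13, NC15, Tild2 or Tild3, 2 without NC1, NC5 or Tild8, and 3 without Tild7, while all genes called ranged from 14 without NC7 to 633 without Tild7. By DESeq2, 21 members were called in CEFT, among 3551 of all 19056 genes, and 17 in TILD, among 1798.

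Beside these values, the summed interferon-stimulated genes had a median of 1703 CPM in NC (1163 to 2336), 3136 in CEFT (1258 to 8396) and 1359 in TILD (1035 to 12840) on day 3, and 3 of 10 were called higher in CEFT. Neutrophil markers summed to 1638 CPM in NC (1371 to 2077), 1501 in CEFT (1302 to 2038) and 2485 in TILD (1988 to 3078), with 1 of 6 higher in TILD. T cell markers had medians of 2542 CPM in NC (2115 to 3209), 2767 in CEFT (2221 to 3706) and 2491 in TILD (1894 to 3319), and 1 of 9 was lower in CEFT. B cell markers summed to 1399 CPM in NC (1142 to 1975), 2161 in CEFT (934 to 2718) and 1571 in TILD (1178 to 2924). Medians in NC, CEFT and TILD were 520, 476 and 568 CPM for monocyte markers and 471, 459 and 521 for NK and cytotoxic markers. They were 1039, 1058 and 1004 for platelet markers and 12608, 10548 and 4371 for erythroid markers. Their part in the differences was not tested. Of the immunoproteasome genes, PSMB10 was higher in CEFT on day 3, by 0.57 (SE 0.18, FDR 0.0933), while PSMB8 and PSMB9 were at 0.73 and 0.36 with FDRs of 0.192 and 0.1197. Of the 28 partners, 5 were higher in CEFT, among them ADRM1 by 0.55 (SE 0.12, FDR 0.0527), and 2 were lower, among them SEM1, which fell by 0.80 (SE 0.18, FDR 0.0521).

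**Figure D5:**
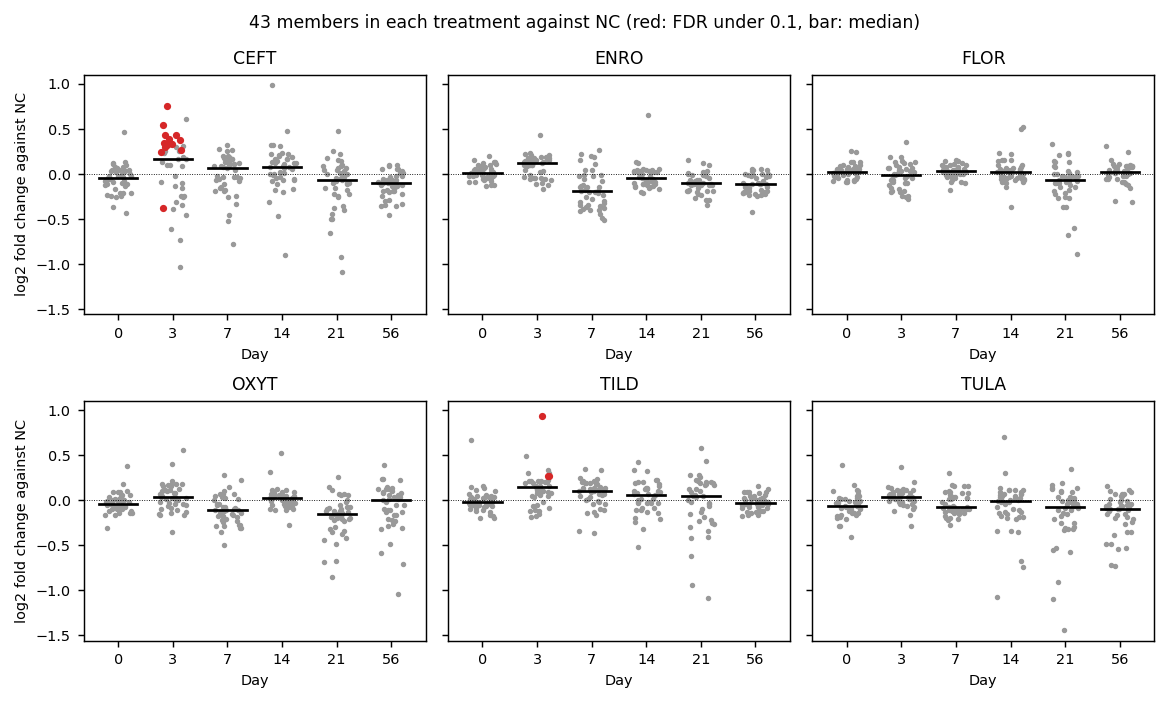
Log2 fold change of the 43 members against NC (vertical axis) on each sampling day (horizontal axis) in the 6 treatments, with 1 point per member, red at an FDR under 0.1, and a bar at the median. The medians on day 3 are 0.17 in CEFT and 0.14 in TILD, and the lowest points on days 14 and 21, such as -1.44 in TULA on day 21, are not called.

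The members' median difference from NC had no fixed sign. On day 3 it was 0.12 in ENRO, 0.14 in TILD, 0.04 in OXYT, 0.03 in TULA and -0.01 in FLOR, and on day 56 it lay between -0.11 in ENRO and 0.02 in FLOR. The lowest difference of all was that of PSMA3 in TULA on day 21, with medians of 12.9 CPM in TULA (8.48 to 28.8) and 41.2 in NC (29.7 to 58.4), at -1.44 (SE 0.28, FDR 0.150).

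Changes from day 0 were compared between each treatment and NC with steer as a block, at an FDR of 0.05 over 5 days together. In CEFT, 14 members (32.6%) changed differently from NC, against 4.65% of all genes. Those with the smallest FDR were PSMD9 (0.0121), PSMC5 (0.0272), PSMB1 (0.0297), PSMB2 (0.0314), PSMC4 (0.0337) and PSMD3 (0.0344). PSMD9 had a median of 23.7 CPM in NC on day 3 (21.6 to 24.7) and 27.6 in CEFT (25.7 to 31.01). On day 3 alone, the change from day 0 was called for 81 of all 19056 genes. PSMD3 was the only member among them, and it rose by 0.34 more than in NC (SE 0.09, FDR 0.0446).

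In ENRO, 9 members (20.9%) changed differently from NC, against 8.67% of all genes, with PSMB1 (FDR 0.00348), PSMC4 (0.0125), PSMD8 (0.0144), PSMA7 (0.0183), PSME1 (0.0188) and PSMB2 (0.0275) first. PSMB1 had a median of 143 CPM in ENRO and 122 in NC on day 3, but 119 and 136 on day 7, at log2 differences of 0.22 (SE 0.06, FDR 0.106) and -0.37 (SE 0.13, FDR 0.245). PSMC4 did not overlap between ENRO and NC on either day, at 0.13 and -0.32, and neither day alone was called. PSMD8 had medians of 109 CPM in ENRO (101 to 121) and 93.9 in NC on day 3, and of 87.3 (70.9 to 96.8) and 104 (92.3 to 149.5) on day 7. PSMA7 had 162 CPM (142 to 167) against 144 (131 to 162) on day 3 and 124 (109 to 134) against 153 (132 to 209) on day 7. PSME1 had 513 CPM (484 to 537) against 419.6 (394 to 491) on day 3 and 408 (337 to 445) against 493 (412 to 583) on day 7. For PSMD8, PSMA7 and PSME1 the ENRO median was above that of NC on day 3 and below it on day 7, with overlap of the groups on both days. PSMB2 followed the same order, at log2 differences of 0.18 and -0.41. ENRO and NC were sequenced on the same lane. The summed neutrophil markers on day 3 were 3066 CPM in ENRO (1618 to 4372), with 1 of 6 higher, and those of interferon-stimulated genes 2848 CPM (2021 to 8622), with 1 of 10 higher, and their part was not tested.

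In OXYT, 1 member was called, PSMD1 (FDR 0.00907), against 3.25% of all genes. PSMD1 had a median of 39.99 CPM in OXYT and 57.1 in NC on day 56, without overlap, at a log2 difference of -0.48 (SE 0.09), while the day test gave an FDR of 0.184. In FLOR, PSME3 was called (FDR 0.0384) against 0.861% of all genes. No member was called in TILD, with 7 at an unadjusted p under 0.05, or in TULA, with 6, against 0.420% and 0.0420% of all genes. Voom with a random effect of steer called no member in either, with 9 at an unadjusted p under 0.05 in each. Of all genes it called 5 in TILD and 0 in TULA.

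Differences from NC over all 6 days together, from limma's voom fit with a random effect of steer and at an FDR of 0.05, were called for 4 members in CEFT (9.30%), against 3.42% of all genes. They were PSMA3, at -0.77 (SE 0.23, FDR 0.0366), PSMD3, at 0.20 (SE 0.05, FDR 0.0162), PSME3, at 0.15 (SE 0.04, FDR 0.00917), and PSME4, at -0.24 (SE 0.07, FDR 0.0357). PSMA3 was already lower in CEFT on day 0, by 0.43 (SE 0.25, FDR 0.913), with medians of 34.2 CPM in CEFT (19.6 to 46.9) and 48.1 in NC (25.6 to 60.2). On day 21 the CEFT steers, at 10.8 to 27.6 CPM, were all below the NC steers, at 29.7 to 58.4. When only CEFT and NC were fitted, no member was called in CEFT, with 11 at an unadjusted p under 0.05. Of all 19056 genes, 159 were called in that fit, against 651 with all groups fitted.

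PSME3 was also called in TILD, at 0.16 (SE 0.04, FDR 0.000943), against 4.98% of all genes, and in FLOR, at 0.13 (SE 0.04, FDR 0.0241), against 1.56%. Its medians on day 0 were 131 CPM in NC (122 to 135), 144 in TILD (131 to 156), 138 in CEFT (125 to 161) and 133 in FLOR (128 to 152), with overlap of each of the 3 with NC before dosing. On day 21 they were 122 CPM in NC (119 to 131), 151 in TILD (134 to 157), 143 in CEFT (132 to 174) and 146 in FLOR (131 to 157), and each of the 3 was above NC without overlap, in FLOR by a margin under 1 CPM. No member was called in ENRO, OXYT or TULA, against 0.430%, 0.666% and 0.651% of all genes, with 1, 5 and 13 members at an unadjusted p under 0.05. After ComBat_seq by lane no member was called in any of the 6 treatments, with 0 to 3 members at an unadjusted p under 0.05, and from 0 genes of the whole table, in OXYT, to 76, in ENRO, were called. That adjustment had no treatment term, so these counts cannot tell treatment from lane.

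In RefSeq annotation of another assembly than the one used for the counts, 13 of the 43 members overlap another gene, among them PSMA3, PSMB5, PSMC4, PSMD1, PSMD13, PSME1, PSME3 and PSMF1. The reads were aligned and assembled at the default settings of the tools, which set no library strand, so the counts of these members may hold reads of the overlapping gene.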

How the data were processed

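Whole blood RNA of 42 steers on 6 days gave 252 stranded mRNA libraries, sequenced on 3 lanes. The deposited file holds raw gene counts, which the authors made by trimming with Trimmomatic 0.39, alignment to ARS-UCD1.3 with HISAT2, assembly with StringTie 2.2.0 and its count script at a read length of 150. That script derives counts from coverage, so reads shared by overlapping genes or near-identical copies may be split. All columns were matched to samples by their labels, and 0 were left unused. Genes with CPM above 0.2 in at least 12 libraries were scaled by TMM and tested with edgeR 4.0.16 by quasi-likelihood F tests in R 4.3.3, after a check on simulated data.

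Days were compared with steer as a block, each treatment with NC within a day, and changes from day 0 with steer as a block. Libraries of the same steer come from the same animal, and deviations from group means had a median correlation of 0.34 within a steer, over 0.1 in 42 of 42. Group effects used limma 3.58.1 voom with steer as a random block (correlation 0.36) in place of the mixed model of the study. P-values were adjusted by Benjamini-Hochberg over all genes. DESeq2 1.42.0, RLE scaling, ComBat_seq by lane with no treatment term (sva 3.50.0), lane as a term, no filter, hemoglobin removal and left-out steers served as alternatives. No 2 libraries held identical counts. The precision of low counts is set by the depth given above.

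Members and lists were chosen with earlier results of these data known. Values are given for the 3 largest called changes on day 56 in each direction, for members called against NC, with a group effect or with a different change from day 0 (up to 6 by FDR), and for PSMB5, PSMB6, PSMB7, PSME1 and PSME2. Gene names are those of the count table, and all 43 matched RefSeq. Sequences and promoter motifs were not analysed here. The values of 1 partner gene are not reported here.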

Additional observations from a re-analysis of the deposited data

Results flagged for a closer look

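Each member called in CEFT or TILD on day 3 was examined in the treated steers and in NC, as 34 groups of 6 steers. The NC groups of PSMD3 and PSMC5 entered for both treatments, so the 34 were not all separate. In 2 of them a steer's gap to the nearest other exceeded Dixon's critical ratio at the 95% level, and chance gives about 1 in 20. In CEFT on day 3, the steer Ceft4 had 168 CPM of PSMB2 and the next had 117 (ratio 0.646). In NC on day 3, the steer NC1 had 78.3 CPM of PSMC4 and the next had 74.8 (ratio 0.672).

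The change from day 0 differed between CEFT and NC, by edgeR's quasi-likelihood test of the treatment by day terms, for 14 members. Their FDRs were 0.0121 for PSMD9, 0.0272 for PSMC5, 0.0297 for PSMB1, 0.0314 for PSMB2, 0.0337 for PSMC4, 0.0344 for PSMD3, 0.0367 for PSMD2, 0.0381 for PSMD13, 0.0439 for PSMB6, 0.0443 for PSMD8, 0.0446 for PSMA5, 0.0448 for PSMD14, 0.0471 for PSMD6 and 0.0479 for PSMC1. On day 3 alone, PSMD3 was the only one called, among 81 of all 19056 genes. The difference from NC was above 0 for 13 of these 14 members and was -0.21 for PSMD14.

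By the same test, 9 members differed between ENRO and NC, with FDRs of 0.00348 for PSMB1, 0.0125 for PSMC4, 0.0144 for PSMD8, 0.0183 for PSMA7, 0.0188 for PSME1, 0.0275 for PSMB2, 0.0391 for PSMD13, 0.0397 for PSMG3 and 0.0399 for PSMB4. PSME3 differed between FLOR and NC (FDR 0.0384) and PSMD1 between OXYT and NC (FDR 0.00907).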

How the results depend on the processing

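Steer was a block in the day fits. With no replicate block, 40 members changed over the 6 days instead of 41, 4 instead of 7 were lower on day 3, and PSMB7 was at 0.0012 on day 56. RLE scaling, no filter, hemoglobin removal, ComBat_seq, limma voom and DESeq2 kept each day count within 1.5 times. NC steers alone gave 15 of 43 members over the days, beside 5809 of all 19056 genes. They gave 0 higher and 0 lower on days 3 and 7, 5 and 2 on day 14, 11 and 2 on day 21 and 7 and 3 on day 56. Of all genes in NC, 0.0262% were higher and 0.0105% lower on day 3, 0.992% and 1.81% on day 7, and 10.6% and 11.4% on day 21. PSMB7 was at 0.087 and PSMF1 at 0.066 on day 56 in NC. Lane 1 alone gave 26 of 43 members over the days, beside 10904 of all 19056 genes. It gave 0 higher on days 3 and 7 and 10 higher on day 14. On day 3 it gave 2 lower, where 3.14% of all genes were. On day 21 it gave 13 higher and 2 lower, where 19% and 19.6% of all genes were. On day 56 it gave 9 higher, with PSMA5 at -0.0087, PSMA7 at -0.0093, PSMB4 at -0.068, PSMB5 at -0.085 and PSMF1 at 0.017. Lane 2 alone gave 4 lower on day 3, where 11.9% of all genes were, and PSMF1 at 0.091. Lane 3 alone gave 1 lower on day 3, where 11.4% of all genes were, and 11 higher on day 7, where 14.8% were. PSMD11 was at -0.085, PSMD2 at -0.0021 and PSMG2 at 0.10 in lane 3. Without the 17 libraries set apart, chosen after seeing the data, PSMD11 was at -0.0031, and voom put PSMF1 at 0.037. The lane fits held 14 steers each and the NC fit held 6. The cause of none of the shifts was tested.

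Against NC on days 3 to 56, 0 members were called with ComBat_seq under either test and 5 with lane as a term, all in TULA on day 14. DESeq2 called 39, and 1 was called without the filter. The shares of all genes called over the same comparisons are not given here, so these counts have no background beside them. In CEFT on day 3 the same settings gave 0, 0, 21 and 1, and in TILD 0, 0, 17 and 0, with 6 in TILD under RLE scaling. Leaving out 1 steer gave 0 to 26 in CEFT and 0 to 3 in TILD. The group effect counts of CEFT, FLOR and TILD fell to 0 with ComBat_seq, and that of CEFT to 0 with NC alone. Over all genes, the calls in these 3 treatments fell from 651, 297 and 949 to 3, 50 and 15 with ComBat_seq. With NC alone, 159 of all genes were called in CEFT. By voom, 9 members changed from day 0 differently in CEFT, among 394 of all genes, against 14 among 886 in the main fit. These causes were not tested.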
